A study of Homo sapiens with 12 samples.

Results

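The genes described here are the cyclins, cyclin-dependent kinases and inhibitors that act in G1, the phase of the cell cycle before DNA replication. They were chosen by name, 10 genes in all, and 9 of them had a row among the 10945 rows with a gene symbol. CCNE2 was not analysed here. The 9 were the D-type cyclins CCND1 and CCND3, the E-type cyclin CCNE1, the kinases CDK4, CDK6 and CDK2, the inhibitors CDKN2B and CDKN1B, and the retinoblastoma gene RB1. CDKN2B was included because it was much higher in one medium, Plasmax, so its values in Plasmax are a description and were not tested.

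HepG2, a human liver tumour line carried as wild type, was grown in 4 media, and 3 libraries of each were sequenced from the 3′ ends of mRNA. Cells were kept and seeded in EMEM, a minimal essential medium, and 24 h later were given EMEM, DMEM with little glucose (LGDMEM), DMEM with much glucose (HGDMEM) or Plasmax, whose composition is modelled on that of blood plasma. All 4 groups received 10% heat-inactivated serum, a change of medium at 48 h and harvest at 96 h. All libraries are of one cell line. The labels do not say whether replicates were cultured apart, and the p-values reflect only the variation between libraries, which may be technical.

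In G1, D-type cyclins bind CDK4 and CDK6 and E-type cyclins bind CDK2. These kinases phosphorylate the RB protein, which otherwise holds back the E2F transcription factors that drive genes for DNA replication. The INK4 inhibitors, to which CDKN2B (p15) belongs, bind CDK4 and CDK6, while the CIP/KIP inhibitors, to which CDKN1B (p27) belongs, bind CDK2 complexes. In the liver, cyclin D1 is a known point of control when hepatocytes leave quiescence. Much of this control acts on protein levels and phosphorylation, which RNA does not show.

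Counts per library on rows with a symbol summed to between 3995365 and 5840057. Rows with low counts were absent from the table, so these totals are not the full depth. The 9 genes each had between 72 and 4210 counts summed over the 3 libraries of a medium. All 10 hepatocyte markers checked, among them ALB and APOA1, had rows, and their summed level was 14990 to 16310 CPM (counts scaled to a common library total) in Plasmax and 23490 to 29450 CPM in the other media. ALB made 35.5% of the sum over all libraries. Against EMEM 6 of the 10 were lower and 1 higher in Plasmax at an adjusted p of 0.05, beside 12.1% and 10% of all genes. Of 7 leukocyte markers 3 had a row, while PTPRC, CD3E and CSF1R had none, and LYZ made 99.6% of a sum of 1966 to 2193 CPM in Plasmax and 2122 to 3294 CPM elsewhere. The 2 of 6 endothelial and stromal markers with a row summed to 10.5 to 11.75 CPM in Plasmax and 3.642 to 14.94 CPM elsewhere. Plasmax libraries lay at 52.9 to 59.4 on the first principal component and all others below 0, and LGDMEM 3 stood apart on the second at −51.8. The part of these differences in the results below was not tested. In bulk RNA, fewer cells in a phase of the cycle and less RNA per cell cannot be told apart.

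The G1 genes moved in opposite directions in Plasmax. CDK6 was higher and CDK2 lower than in each of the other 3 media, CCNE1 was lower than in EMEM and HGDMEM, and CCND1 was higher than in LGDMEM and HGDMEM. Of the 8 genes tested, 1 rose and 2 fell against EMEM, 2 rose and 3 fell against LGDMEM, and 2 rose and 3 fell against HGDMEM. Genes were called at an adjusted p of 0.05 from the quasi-likelihood test of edgeR, adjusted by Benjamini-Hochberg over all 10945 genes. In these comparisons 22.1%, 21.2% and 26.9% of all genes were called, with 10%, 9.48% and 12.8% higher and 12.1%, 11.7% and 14.1% lower. The median log2 fold change of the 8 genes was −0.12, 0.02 and −0.07, beside 0.02, 0.00 and 0.01 over all genes. The 3 comparisons share the Plasmax libraries and are not independent. Over the 4 media together 4 of the 8 differed (CCND1, CCNE1, CDK2 and CDK6), beside 22.9% of all genes.

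**Figure D1:**
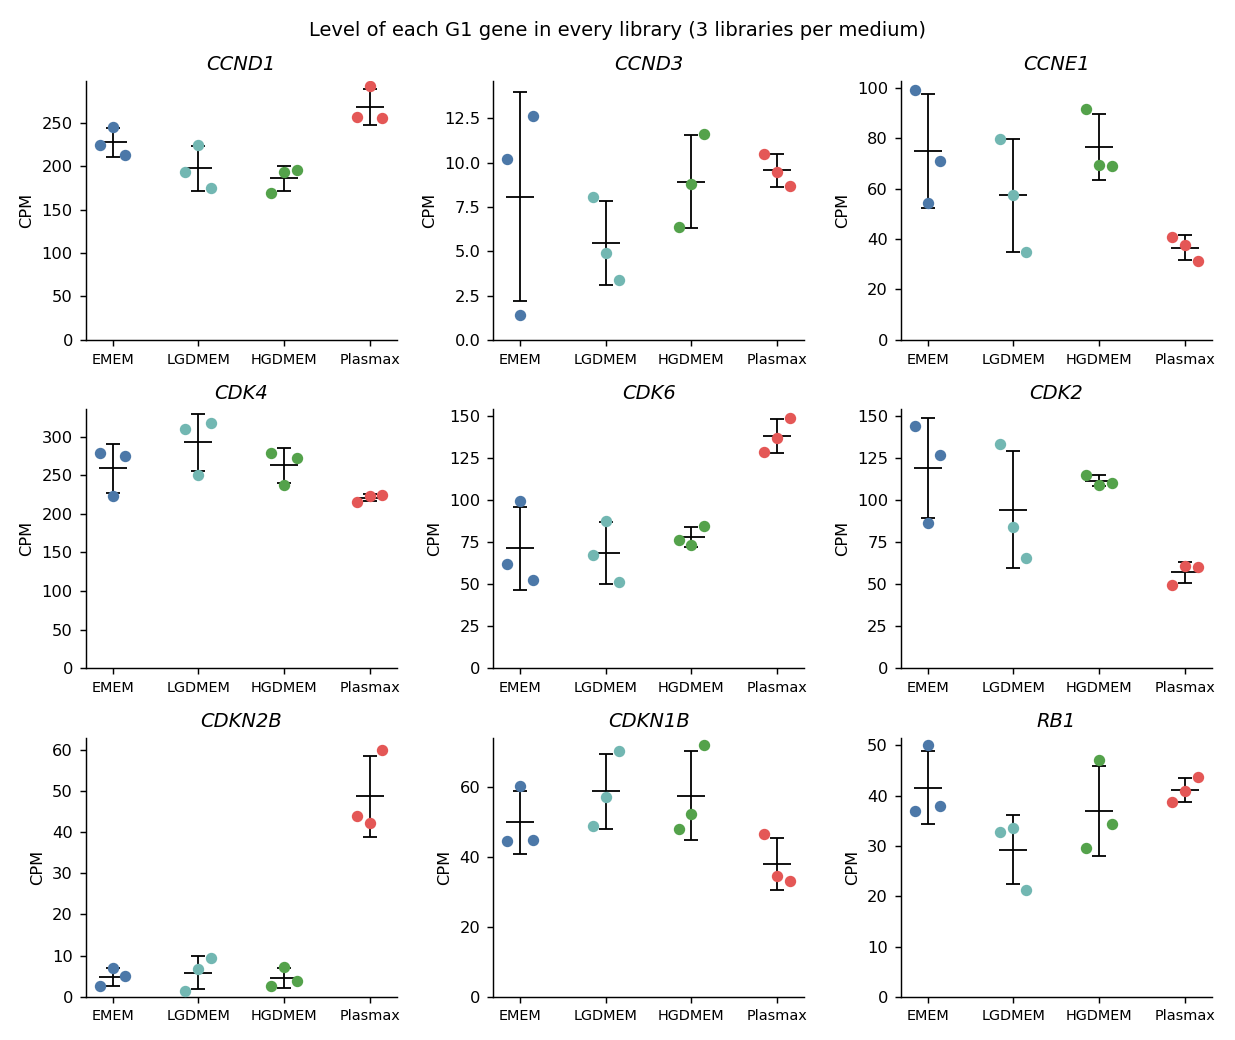
CPM of the 9 G1 genes in each of the 12 libraries, by medium on the horizontal axis, with the mean and SD of 3 libraries as bars. The Plasmax points lie above all others for CDK6, CCND1 and CDKN2B and below all others for CDK2.

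CCND1 encodes cyclin D1, the partner of CDK4 and CDK6 that responds to growth factors. Its level was 224.5, 245.1 and 212.3 CPM in EMEM, 192.6, 224.7 and 174.3 in LGDMEM, 168.8, 193.0 and 195.6 in HGDMEM and 256.8, 291.7 and 255.3 in Plasmax. All 3 Plasmax libraries were above all 9 others. The mean was 268.0 ± 20.6 CPM (SD, n = 3) in Plasmax and 185.8 ± 14.8 in HGDMEM, a log2 fold change of 0.53 (SE 0.13, adjusted p = 0.00435). Against LGDMEM, at 197.2 ± 25.5 CPM, it was 0.44 (SE 0.13, adjusted p = 0.0172). This call was lost without LGDMEM 3 (0.36, adjusted p = 0.058) and without Plasmax 2 (0.38, adjusted p = 0.08). Against EMEM, at 227.3 ± 16.6 CPM, the difference was 0.24 with a 95% interval of −0.03 to 0.50 and was not called (adjusted p = 0.191). CCND1 overlaps LTO1 on the opposite strand by 497 exonic bases in GENCODE 29. LTO1 had 2738 counts over the 12 libraries and CCND1 had 12999, and LTO1 was not called in Plasmax against any other medium.

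CCND3, which encodes the related cyclin D3, was counted in small numbers, 72 to 143 reads per medium. It had 10.2, 1.42 and 12.6 CPM in EMEM, 8.08, 4.91 and 3.396 in LGDMEM, 6.38, 8.77 and 11.6 in HGDMEM and 10.5, 9.48 and 8.68 in Plasmax. EMEM 2, with 8 reads, was the lowest of the 12 libraries, and the media overlapped except that Plasmax lay above LGDMEM. Its log2 fold change against EMEM was 0.26, with an interval of −0.83 to 1.35 that includes more than a doubling. It was called in no comparison.

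CCNE1 encodes cyclin E1, which activates CDK2 at the entry to DNA replication. Its level was 99.3, 54.3 and 71.1 CPM in EMEM, 79.8, 57.6 and 34.9 in LGDMEM, 91.5, 69.2 and 68.9 in HGDMEM and 41.0, 37.5 and 31.2 in Plasmax. Plasmax lay below every EMEM and HGDMEM library and overlapped only with LGDMEM 3. The log2 fold change was −1.03 against EMEM (SE 0.25, adjusted p = 0.00681) and −1.06 against HGDMEM (SE 0.25, adjusted p = 0.00433). Against LGDMEM it was −0.65 and was not called (SE 0.26, adjusted p = 0.0799). It was called without LGDMEM 3 (−0.91, adjusted p = 0.00725), while without LGDMEM 1 it was −0.34 and not called (adjusted p = 0.39). Nor was it called without LGDMEM 2 (adjusted p = 0.136) or any 1 of the Plasmax libraries (adjusted p from 0.103 to 0.225). Without EMEM 1, the library with the highest level, the difference from EMEM was −0.78 and missed the threshold (adjusted p = 0.0541).

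The kinases differed from each other. CDK6 was 62.1, 99.5 and 52.8 CPM in EMEM, 67.4, 87.7 and 51.2 in LGDMEM, 76.1, 73.3 and 84.6 in HGDMEM and 129.1, 136.9 and 149.0 in Plasmax. Every Plasmax library was above all 9 others, of which EMEM 2 was the highest. The rise had a log2 fold change of 0.95 against EMEM (SE 0.21, adjusted p = 0.00302), 1.01 against LGDMEM (SE 0.21, adjusted p = 0.00204) and 0.83 against HGDMEM (SE 0.21, adjusted p = 0.00593). Its calls held in each of the 16 alternative settings of each comparison.

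CDK4, the other partner of the D-type cyclins, was 278.6, 222.7 and 274.7 CPM in EMEM, 309.4, 250.6 and 317.9 in LGDMEM, 279.1, 237.2 and 272.6 in HGDMEM and 215.9, 222.6 and 224.7 in Plasmax. The Plasmax values spanned less than 10 CPM and overlapped only with EMEM 2. CDK4 fell against LGDMEM by 0.40 on the log2 scale (SE 0.13, adjusted p = 0.0306), a call that was lost without LGDMEM 1, LGDMEM 3 or any 1 of the Plasmax libraries (adjusted p from 0.069 to 0.0908), and with the libraries of the compared media fitted alone (−0.41, adjusted p = 0.0545). The differences from EMEM (−0.23, interval −0.50 to 0.04) and HGDMEM (−0.25, interval −0.52 to 0.02) were not called, with adjusted p = 0.225 and 0.163. CDK4 and TSPAN31 overlap on opposite strands by 1369 exonic bases in GENCODE 29, and use of strand in counting was not given in the sources used here. TSPAN31 had 357 counts over the 12 libraries and CDK4 had 15129. On opposite strands CDK2 also overlaps AC025162.1 (565 exonic bases) and PMEL (89), CDK6 overlaps AC002454.1 (81) and CCND3 overlaps AL513008.1 (24). These partners were not analysed here.

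CDK2, the partner of cyclin E, was 144.4, 86.3 and 127.1 CPM in EMEM, 133.3, 84.1 and 65.9 in LGDMEM, 115.3, 109.4 and 110.2 in HGDMEM and 49.6, 61.0 and 60.6 in Plasmax. The Plasmax libraries were below all 9 others, the nearest being LGDMEM 3. CDK2 fell by 1.06 against EMEM (SE 0.22, adjusted p = 0.00184), by 0.97 against HGDMEM (SE 0.22, adjusted p = 0.00275) and by 0.72 against LGDMEM (SE 0.22, adjusted p = 0.023). The last call was lost without LGDMEM 1 (−0.40, adjusted p = 0.179), Plasmax 1 (−0.63, adjusted p = 0.0937) or Plasmax 3 (−0.77, adjusted p = 0.0521).

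**Figure D2:**
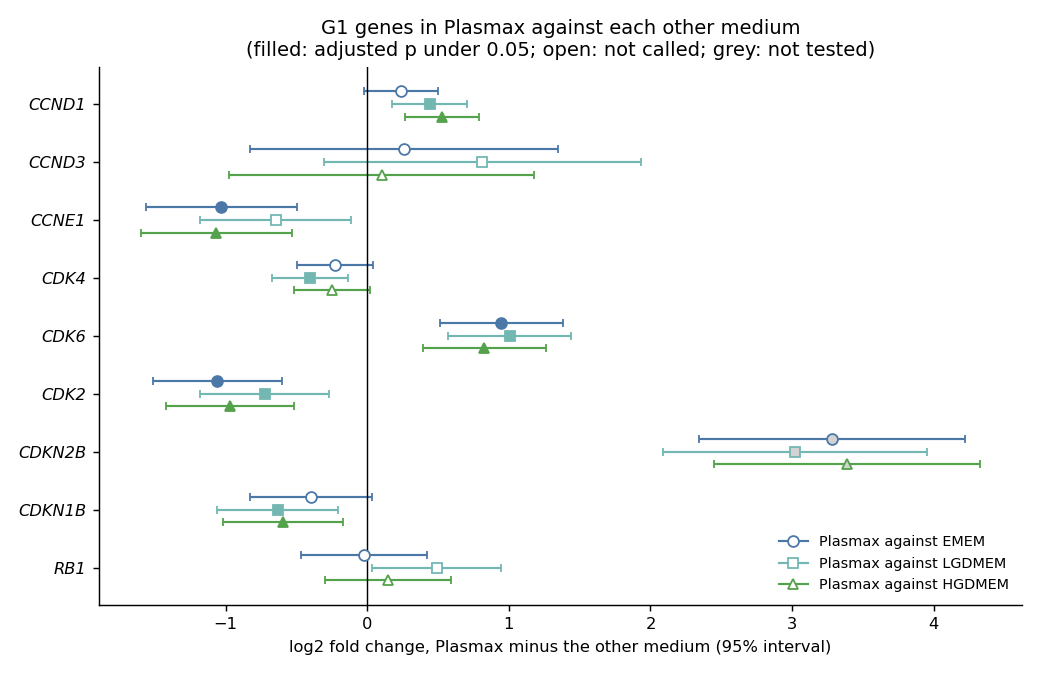
Log2 fold change of the 9 genes in Plasmax against each of the other media, with 95% intervals. Filled symbols were called, open symbols were not, and grey symbols (CDKN2B) were not tested. CDK6 lies right of 0 and CDK2 left of 0 in each comparison.

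The ratio of 2 related genes within a library does not depend on how libraries are scaled. The ratio of CDK4 to CDK6 counts was 4.48, 2.24 and 5.19 in EMEM, 4.59, 2.86 and 6.20 in LGDMEM, 3.66, 3.23 and 3.22 in HGDMEM and 1.67, 1.63 and 1.51 in Plasmax. Plasmax was below all 9 other libraries. The mean log2 ratio was 0.68 ± 0.08 (SD, n = 3) in Plasmax and 1.90 ± 0.65 in EMEM. The difference was −1.22 against EMEM, −1.44 against LGDMEM and −1.07 against HGDMEM. Each had a two-sided exact permutation p of 0.1, the smallest that 3 against 3 libraries can give. The other 3 pairs of media had exact permutation p of 0.4 to 0.9. The log2 ratio of CCND1 to CCND3 was 4.80 ± 0.18 in Plasmax and 5.28 ± 1.8 in EMEM, where EMEM 2 alone reached 7.34. Its difference of −0.49 (two-sided exact permutation p = 1) turned to 0.54 without EMEM 2.

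**Figure D3:**
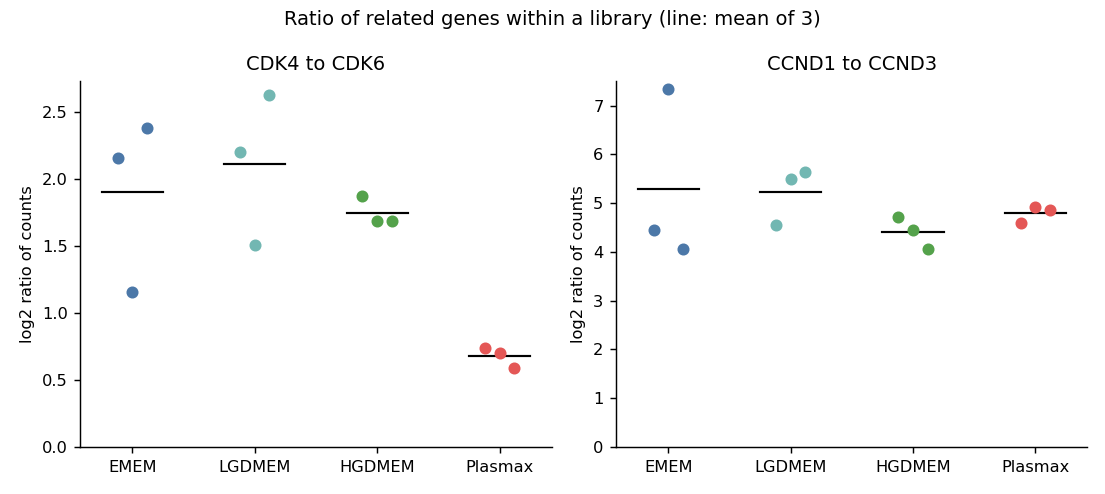
Log2 ratio of counts within each library for CDK4 to CDK6 (left) and CCND1 to CCND3 (right), by medium, with the mean of 3 libraries as a line. The 3 Plasmax points of CDK4 to CDK6 lie from 0.59 to 0.74, below all others, and EMEM 2 stands apart at 7.34 for CCND1 to CCND3.

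CDKN2B, the INK4 inhibitor p15 known as a target of TGF-beta, was 2.67, 6.94 and 5.05 CPM in EMEM, 1.51, 6.68 and 9.51 in LGDMEM, 2.63, 7.28 and 3.81 in HGDMEM and 43.9, 42.3 and 59.9 in Plasmax. The lowest Plasmax library was more than 4 times the highest of the others. The fold difference of Plasmax was 9.73 against EMEM, 8.11 against LGDMEM and 10.5 against HGDMEM, and since the gene was chosen for this it has no test here. The libraries of the other media held only 6 to 44 reads each. Among EMEM, LGDMEM and HGDMEM no difference of CDKN2B was called (adjusted p = 0.905 to 0.982), with intervals reaching from −1.37 to 1.27.

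CDKN1B, the CIP/KIP inhibitor p27 that restrains CDK2, was 44.7, 60.5 and 44.8 CPM in EMEM, 49.0, 57.2 and 70.4 in LGDMEM, 48.2, 52.5 and 72.1 in HGDMEM and 46.5, 34.5 and 33.1 in Plasmax. Plasmax lay below LGDMEM and HGDMEM and overlapped with EMEM. The gene fell by 0.63 against LGDMEM (SE 0.20, adjusted p = 0.0341) and by 0.60 against HGDMEM (SE 0.20, adjusted p = 0.0363), and the difference of −0.40 from EMEM was not called (adjusted p = 0.179). The first call was lost without LGDMEM 2, LGDMEM 3, Plasmax 2 or Plasmax 3, where the log2 fold change was −0.66 to −0.49 (adjusted p from 0.0599 to 0.127). The second was lost without HGDMEM 3, Plasmax 2 or Plasmax 3, where it was −0.53 to −0.41 (adjusted p from 0.12 to 0.201).

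RB1, the substrate of these kinases, was 36.9, 50.02 and 37.9 CPM in EMEM, 32.8, 33.6 and 21.3 in LGDMEM, 29.6, 47.0 and 34.3 in HGDMEM and 38.7, 41.0 and 43.6 in Plasmax. The Plasmax values lay within the range of EMEM and of HGDMEM and above LGDMEM. No difference of RB1 was called. The interval against EMEM was −0.47 to 0.42 around −0.02, and against LGDMEM the difference was 0.49 (SE 0.22, adjusted p = 0.119).

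Promoter windows are shown for CDKN2B and for each gene with an entry that was called in at least 1 comparison with Plasmax. CDK6 was called higher against all 3 other media, CCNE1 lower against EMEM and HGDMEM but not LGDMEM, CDKN1B lower against LGDMEM and HGDMEM but not EMEM, and CDK4 lower against LGDMEM alone. Each is the 250 bases before the annotated gene start, from RefSeq on GRCh38.p14, read 5′ to 3′ on the strand of the gene, with the E2F core GGCGGGA or its reverse complement TCCCGCC in capitals. The windows are at chr9:22009306-22009555 (minus strand), chr7:92836574-92836823 (minus strand), chr19:29811741-29811990 (plus strand), chr12:12717118-12717367 (plus strand) and chr12:57752311-57752560 (minus strand). CDK6 had a second entry, whose window is not shown.
CDKN2B: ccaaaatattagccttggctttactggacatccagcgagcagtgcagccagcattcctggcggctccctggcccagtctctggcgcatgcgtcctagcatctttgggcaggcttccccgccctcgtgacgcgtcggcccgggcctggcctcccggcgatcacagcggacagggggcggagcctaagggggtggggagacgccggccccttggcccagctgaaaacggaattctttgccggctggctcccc
CDK6: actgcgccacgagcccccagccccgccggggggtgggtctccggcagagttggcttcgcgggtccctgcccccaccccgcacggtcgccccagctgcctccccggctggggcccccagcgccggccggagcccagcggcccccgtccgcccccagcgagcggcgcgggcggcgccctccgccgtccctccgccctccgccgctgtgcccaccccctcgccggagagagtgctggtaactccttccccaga
CCNE1: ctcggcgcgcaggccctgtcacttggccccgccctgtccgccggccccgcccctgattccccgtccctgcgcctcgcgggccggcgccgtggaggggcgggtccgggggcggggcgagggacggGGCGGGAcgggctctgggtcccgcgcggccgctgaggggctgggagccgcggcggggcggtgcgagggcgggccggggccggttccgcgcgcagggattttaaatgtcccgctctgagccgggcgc
CDKN1B: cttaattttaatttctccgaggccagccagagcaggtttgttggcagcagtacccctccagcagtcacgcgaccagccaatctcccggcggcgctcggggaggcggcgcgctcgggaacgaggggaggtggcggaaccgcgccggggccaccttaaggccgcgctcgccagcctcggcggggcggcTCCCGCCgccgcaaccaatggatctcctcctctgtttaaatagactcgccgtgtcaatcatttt
CDK4: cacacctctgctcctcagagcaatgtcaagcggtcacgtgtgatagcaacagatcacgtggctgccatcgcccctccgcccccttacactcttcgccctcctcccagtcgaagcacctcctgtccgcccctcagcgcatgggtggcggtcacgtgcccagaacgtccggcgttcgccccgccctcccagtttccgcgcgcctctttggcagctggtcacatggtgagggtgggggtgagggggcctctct
The E2F letters stood once each in the windows of CCNE1 and CDKN1B and not in those of CDK4, CDK6 or CDKN2B. They made 2 of the 10 windows of the 7 genes matched by symbol, beside 13.5% of 35116 windows of the same length. CCND3 had 3 of these windows. The window of RB1, at chr13:48476200-48476449, held 36.8% G and C letters, and the others 61.2% to 81.2%. Whether each window lies at the main start of its gene was not tested. The genes not matched were CCND1 and CDK2. The letters TTTGAA (the CHR element), TGACGTC (CRE), CAGAC (a SMAD box) and GTAAACA (FOXO), searched on both strands, were in 0 of the 10 windows and in 13.3%, 3.12%, 38.0% and 2.98% of all windows. A match or its absence says only which letters the window holds.

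Among EMEM, LGDMEM and HGDMEM no difference of a G1 gene was called. None of the 9 was called between LGDMEM and EMEM, HGDMEM and EMEM, or HGDMEM and LGDMEM by edgeR's quasi-likelihood test, nor by DESeq2 or limma voom, and 1, 1 and 0 had an unadjusted p under 0.05. Of all 10945 genes 866, 830 and 860 had an unadjusted p under 0.05. Of all genes 0.0731%, 0.164% and 0.064% were called, with 0.0183%, 0.0365% and 0.0183% higher and 0.0548%, 0.128% and 0.0457% lower. The lowest adjusted p was 0.583 for LGDMEM against EMEM, 0.569 for HGDMEM against EMEM and 0.724 for HGDMEM against LGDMEM. The first 2 belonged to RB1 (−0.51, SE 0.22) and CCND1 (−0.29, SE 0.13). In order of mean level, Plasmax was first and the 3 other media followed for CCND1, CCND3, CDK6 and CDKN2B, and Plasmax was last for CCNE1, CDK2, CDK4 and CDKN1B. For RB1 EMEM (41.6 CPM) and Plasmax (41.1 CPM) came first and LGDMEM was lowest at 29.2. Between neighbours in these orders, Plasmax was called apart for CDK6 and CDK2 alone. CDKN2B was not tested in Plasmax, and no other difference between neighbours was called.

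Among other inhibitors of the G1 kinases CDKN2A and CDKN1A rose and CDKN2C fell in Plasmax. The list held 5 inhibitors beside CDKN2B and CDKN1B, 4 of them measured, and against EMEM 2 rose and 1 fell in Plasmax (the same counts against LGDMEM and HGDMEM), with a median of 0.36 beside 0.02 over all genes. Beside this, 10% of all genes rose and 12.1% fell against EMEM. These shares were 9.48% and 11.7% against LGDMEM, and 12.8% and 14.1% against HGDMEM. The pathway lists were chosen with earlier results of these data known and give no independent support. CDKN2A, whose locus encodes the INK4 protein p16 and the p53 regulator ARF and neighbours CDKN2B, was 27.4, 40.0 and 25.4 CPM in EMEM and 172.2, 152.4 and 188.3 in Plasmax. All Plasmax libraries were far above EMEM, with a log2 fold change of 2.46 (SE 0.18, adjusted p = 7.23e-08), and 2.50 and 2.39 against LGDMEM and HGDMEM. The counts do not separate the p16 and ARF transcripts, and CDKN2A shares 341 exonic bases with the antisense gene CDKN2B-AS1, not analysed here. MTAP, the next gene at this locus, was not called against EMEM (0.34, SE 0.21, adjusted p = 0.256).

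CDKN1A, the CIP/KIP inhibitor p21, was 75.7, 73.7 and 93.6 CPM in EMEM and 267.8, 188.2 and 251.8 in Plasmax, and rose against LGDMEM and HGDMEM by log2 fold changes of 1.42 and 1.52 (adjusted p = 6.34e-06 and 2.3e-06). CDKN2C, the INK4 inhibitor p18, went the other way, from 28.9, 21.7 and 20.6 CPM in EMEM to 7.62, 3.98 and 4.96 in Plasmax, a log2 fold change of −2.10 (SE 0.34, adjusted p = 0.000259). CDKN2D, the INK4 inhibitor p19, was not called at −0.83 (SE 0.40, adjusted p = 0.149). Within the INK4 family CDKN2A rose and CDKN2C fell in Plasmax, and within CIP/KIP CDKN1A rose and CDKN1B fell against LGDMEM and HGDMEM.

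**Figure D4:**
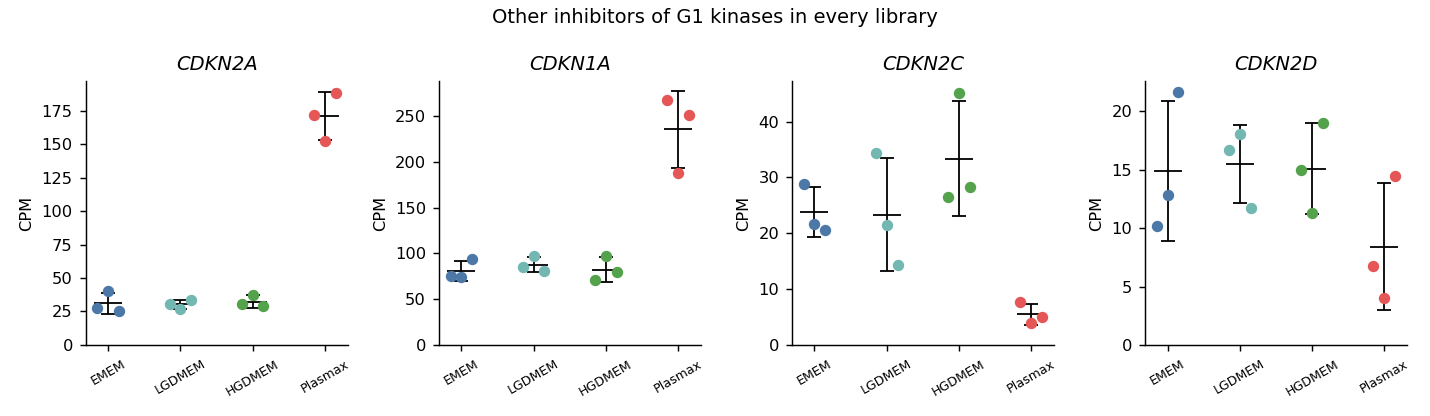
CPM of the inhibitors CDKN2A, CDKN1A, CDKN2C and CDKN2D in each library, by medium, with the mean and SD of 3 libraries. The Plasmax libraries lie above all others for CDKN2A and CDKN1A and below all others for CDKN2C.

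Of 15 measured RB relatives, E2F factors and subunits of the DREAM repressor complex, 2 rose and 5 fell in Plasmax against EMEM, with a median of −0.48. E2F1, an activating E2F factor held by RB, went from 156.1, 92.6 and 124.3 CPM to 48.4, 53.5 and 41.3 (log2 fold change −1.38, SE 0.23, adjusted p = 0.000309). E2F2, TFDP1 (a dimer partner of E2F) and the RB relative RBL1 fell, with log2 fold changes of −1.85, −1.31 and −1.25. The 2 that rose were E2F3 (0.86) and E2F6 (0.48), and LIN52 also fell (−0.84), all 3 named after their values were seen. Against LGDMEM 1 rose and 3 fell, and against HGDMEM 1 rose and 5 fell, the gene that rose being E2F6 in both. E2F3 was called in neither (0.71, adjusted p = 0.082, and 0.17, adjusted p = 0.698), nor was LIN52 (adjusted p = 0.191 and 0.0875). RBL1 was not called against LGDMEM (−0.90, adjusted p = 0.0638). All-gene shares up and down were 10% and 12.1% (EMEM), 9.48% and 11.7% (LGDMEM), and 12.8% and 14.1% (HGDMEM).

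Of 19 genes of the G1/S transition that E2F is known to drive, 17 fell and 0 rose against EMEM, with a median of −1.35. Against each of LGDMEM and HGDMEM 16 fell. All-gene shares that fell were 12.1% against EMEM, 11.7% against LGDMEM and 14.1% against HGDMEM. ORC1, CDT1, TK1 and CDC6, which act in licensing of replication origins or in thymidine supply, had log2 fold changes of −2.91, −2.61, −2.43 and −2.11. POLA1, a subunit of DNA polymerase alpha, was not called at −0.78 (SE 0.30, adjusted p = 0.0723).

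Among 7 partners and activators of G1 kinases 2 rose and 1 fell against EMEM, with a median of 0.22. In that comparison 10% of all genes rose and 12.1% fell. CCND2, the third D-type cyclin, had 9, 8 and 0 reads in EMEM and 32, 41 and 61 in Plasmax, a log2 fold change of 2.90 (SE 0.71, adjusted p = 0.00683), from low counts. CCNH, a subunit of the CDK-activating kinase, rose by 0.73 on the log2 scale, while CDC25A, the phosphatase that activates CDK2, fell by 1.44. MYC, a transcription factor that promotes G1 progress, was not called at 0.22 (SE 0.19, adjusted p = 0.458). Of 9 genes for protein turnover of G1 regulators 1 rose and 3 fell, with a median of −0.19. These counts stand beside the same 10% and 12.1% of all genes. SKP2, the ubiquitin ligase subunit that marks p27 for degradation, went from 47.8 ± 7.54 to 12.9 ± 2.22 CPM (log2 fold change −1.88, adjusted p = 4.65e-05), its ligase partner RBX1 fell by 0.73, its cofactor CKS1B fell by 0.60 and the kinase GSK3B rose by 0.49. Among the partners and activators 1 rose and 1 fell against each of LGDMEM and HGDMEM. CCNH was called in neither (adjusted p = 0.464 and 0.0784). Of the turnover genes 1 rose and 2 fell against LGDMEM, and 0 rose and 3 fell against HGDMEM. CKS1B was not called against LGDMEM (adjusted p = 0.0749), nor GSK3B against HGDMEM (adjusted p = 0.0849). All-gene shares up and down were 9.48% and 11.7% (LGDMEM), and 12.8% and 14.1% (HGDMEM).

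TGF-beta signalling genes and targets, the list chosen for its link to CDKN2B, had 8 of 14 measured members up and 1 down against EMEM, with a median of 0.75. They had 5 up and 1 down against LGDMEM and 9 up and 0 down against HGDMEM. All-gene shares up and down were 10% and 12.1% (EMEM), 9.48% and 11.7% (LGDMEM), and 12.8% and 14.1% (HGDMEM). PMEPA1, a feedback inhibitor, had 0, 2 and 4 reads in EMEM and 24, 18 and 35 in Plasmax, a log2 fold change of 3.58 (SE 0.92, adjusted p = 0.0088). KLF10 rose by 1.93 and the ligand TGFB1 by 1.29, and TGFB1 was not called against LGDMEM (1.03, adjusted p = 0.0676). TGFBI, named after its values were seen, was the member that fell, by 0.97, and SMAD7, the inhibitory SMAD, was not called at 0.79 (SE 0.58, adjusted p = 0.364).

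Of 10 measured genes for mitogen and beta-catenin input to cyclin D, 4 rose and 0 fell against EMEM, with a median of 0.69. EGR1, JUNB, TCF7L2 and JUN, transcription factors of these pathways, rose, with log2 fold changes of 1.86, 1.43, 1.12 and 0.83. EGR1 was not called against LGDMEM (0.51, adjusted p = 0.313). Against LGDMEM 5 rose and against HGDMEM 7. For this list and the FOXO list, all-gene shares up and down were 10% and 12.1% against EMEM. They were 9.48% and 11.7% against LGDMEM, and 12.8% and 14.1% against HGDMEM. CTNNB1 (beta-catenin) followed CCND1 in which comparisons were called, at 0.15 against EMEM (adjusted p = 0.379), 0.59 against LGDMEM (adjusted p = 0.00125) and 0.56 against HGDMEM (adjusted p = 0.00134). Of 6 measured FOXO factors and targets 0 were called against EMEM, with a median of 0.46, while 1 rose against LGDMEM and 2 against HGDMEM.

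**Figure D5:**
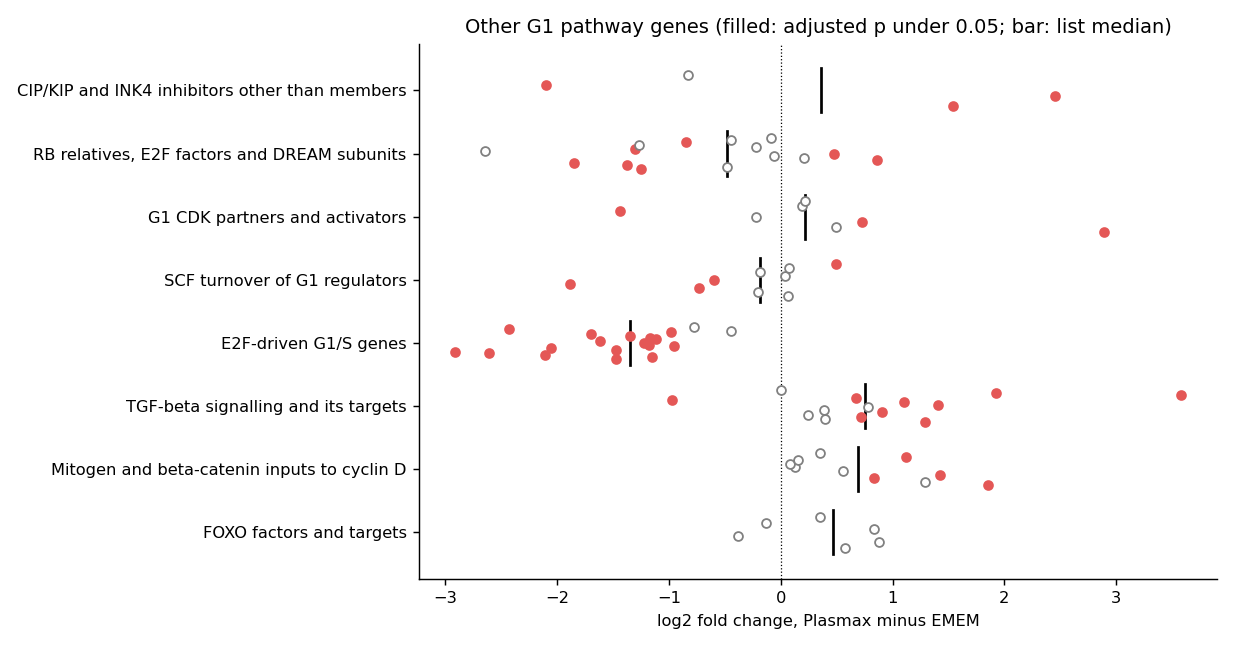
Log2 fold change in Plasmax against EMEM of each measured gene of 8 pathway lists, on the horizontal axis. Filled points were called, open points were not, and the bar is the list median. The E2F-driven genes lie left of 0, with a median of −1.35, and TGF-beta genes mostly right of it, with a median of 0.75.

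The genes with the most similar profiles were found from log2 CPM centred over the 12 libraries, by the smallest root mean square difference among the 7842 genes averaging 10 CPM or more. For CCND1 they were CTNNB1 (0.11), RHOB (0.12) and CLASP1 (0.12). For CCNE1 they were PCNA, the replication clamp (0.13), ALDH1B1 (0.18) and PKMYT1, an inhibitory kinase of CDK1 (0.18). For CDK2 they were TUBA1B (0.14), DTYMK, a thymidylate kinase (0.15), and PCNA (0.15). For CDK6 they were NCOA1 (0.19), PTCHD4 (0.20) and SMG1 (0.20), and for CDKN2B SERPINE2 (0.51), TMEM59L (0.54) and GRB10 (0.54). PCNA was near both CCNE1 and CDK2, and the profiles share the step between Plasmax and the other media.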

How the data were processed

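The values are raw counts of reads by gene symbol, deposited by the authors as 1 table of 12 libraries. QuantSeq 3′ libraries were made, per the labels' protocols. The submitters' processing notes name FastQC 0.72, cutadapt 1.16, STAR 2.7.5b, featureCounts 1.6.3, limma 3.40.6 and hg19/GRCh37, without role or order. Of 11546 rows 601 had no symbol (2.92% to 3.71% of a library's counts) and were left out. The third highest CPM of every row was at least 2.51, so the table lacks weakly counted genes, and the filter used is not given in the sources used here.

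Computed here, all 10945 genes were fitted over 12 libraries with edgeR 4.0.16 (R 4.3.3, TMM scaling, quasi-likelihood test, no block, Benjamini-Hochberg at 0.05). The filter of edgeR removed 0 rows, and the biological coefficient of variation was 0.215. CPM use TMM-scaled totals, and SE is the log2 fold change over the square root of F. Ratios use counts plus 0.5. The alternatives tried were scaling by RLE, upper quartile or library size, no filter, a mean of at least 5 CPM, DESeq2 1.42.0, limma voom 3.58.1, an adjusted p of 0.01, the compared media alone, a replicate block and leaving out each library. The functions were tested on simulated counts. The planned ratio of CCNE1 to CCNE2 was not made, since CCNE2 was not analysed here.

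The members and lists were chosen with earlier results of these data known. Named genes are the members, up to 4 called genes of each list with the largest change from EMEM, CDKN1A, MYC, E2F1, CCND2 and MTAP, and 3 genes most like each member called over the 4 media and CDKN2B. CDKN2D, E2F3, E2F6, LIN52, POLA1, TGFBI and SMAD7 were named after their values were seen. Some genes of the lists are not reported here by name. Same-numbered libraries deviated together (each of the 3 correlations exceeding 0.1, in the 4366 genes whose mean log2 CPM exceeded 5) for HGDMEM against EMEM (0.186, 0.11 and 0.124) and against LGDMEM (0.246, 0.165 and 0.21), but not over all genes, and not in comparisons with Plasmax. For LGDMEM against EMEM they were 0.325, 0.193 and −0.0121. Over all genes the libraries numbered 1 had 0.166 (LGDMEM against EMEM), 0.128 (HGDMEM against EMEM) and 0.112 (HGDMEM against LGDMEM). In the same pairs of media those numbered 2 or 3 had 0.0119 to 0.0755. No 2 libraries of a medium agreed within sampling noise (chi-square per degree of freedom 7.15 to 22.5). No coordinates of the files are given, and the promoter windows are of GRCh38.p14.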

Additional observations from a re-analysis of the deposited data

How the results depend on the processing

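A member's value in 1 comparison between media was repeated under 1 alternative 864 times. Of these 809 were counted as unchanged, 24 lost the call, 2 gained it and 28 changed sign. The last 1, CDKN2B in Plasmax against HGDMEM, moved by more than the SD. Unchanged means the same direction and side of the threshold. For CDKN2B in Plasmax, which has no test, it means the same direction and a move smaller than the SD. Comparisons among EMEM, LGDMEM and HGDMEM, where no member was called, are included and had no call to lose. The 28 list genes repeated under 3 scalings in Plasmax against EMEM kept direction and side of the threshold in 84 of 84. The lowest adjusted p of a value that changed sign was 0.711. The count of called members stayed within 1.5 times under RLE, upper-quartile and library-size scaling, both filters, DESeq2, limma voom and the replicate block in all 7 tests. At an adjusted p of 0.01 it was 1 against LGDMEM and 2 over the 4 media. Over all genes 1254 and 1419 were then called, beside 2321 and 2506 at 0.05. Leaving out 1 library gave 2 to 4 against LGDMEM (3 without LGDMEM 1, LGDMEM 3 or Plasmax 1, and 2 without Plasmax 2 or Plasmax 3), and 2 to 4 over the 4 media (2 without Plasmax 2). Against EMEM it gave 2 to 3 and against HGDMEM 4 to 5. Calls over all genes against LGDMEM also fell from 2321, to 1724 without LGDMEM 1 and 2265 without LGDMEM 3. They were 1840, 1791 and 1666 without Plasmax 1, Plasmax 2 and Plasmax 3. Over the 4 media 1737 genes were called without Plasmax 2, beside 2506 with all libraries. Against EMEM and HGDMEM fewer genes were also called in each fit that left out a library of the compared media. With the replicate block 6 members were called in Plasmax against LGDMEM, CCNE1 being added (−0.61, adjusted p = 0.0319), 3 against EMEM and 5 against HGDMEM, and the block changed no other call of a member. Calls over all genes also rose with the block in each of these comparisons, so the added member came with a general rise. The signs of small differences turned with library-size scaling for CDKN1B between HGDMEM and LGDMEM (0.00816) and RB1 between Plasmax and EMEM (0.000741), and the latter with the replicate block (0.00046). Leaving out 1 library, the ranges that crossed 0 were, for HGDMEM against EMEM, −0.354 to 0.664 (CCND3), −0.147 to 0.29 (CCNE1), −0.276 to 0.0671 (CDK2), −0.0686 to 0.0968 (CDK4), −0.0543 to 0.446 (CDK6) and −0.634 to 0.251 (CDKN2B). For HGDMEM against LGDMEM they were −0.166 to 0.0224 (CCND1), −0.226 to 0.115 (CDKN1B) and −0.892 to 0.121 (CDKN2B), and for LGDMEM against EMEM −0.275 to 0.265 (CDK6) and −0.223 to 0.69 (CDKN2B). For Plasmax they were −0.256 to 0.762 (CCND3) and −0.0985 to 0.138 (RB1) against EMEM and −0.0905 to 0.331 (CCND3) against HGDMEM. The log2 ratio of CDK4 to CDK6, Plasmax against EMEM, stayed between −1.59 and −0.98 without 1 library, and paired by replicate number it was −1.22 (exact sign-flip permutation p = 0.25, the smallest that 3 pairs give). That of CCND1 to CCND3 ran from −1.1 to 0.54. The cause was not tested in any of these cases. CCND3 and CDKN2B had the fewest reads of the 9 genes.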

Other observations

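The 9 libraries outside Plasmax also differed among themselves in the G1 genes. In EMEM, library 2 had the highest CCND1, CDK6, CDKN2B, CDKN1B and RB1 and the lowest CCND3, CCNE1, CDK2 and CDK4 of the 3. Its CDK6 was 99.5 CPM beside 62.1 and 52.8, and its CDK2 86.3 beside 144.4 and 127.1. On the first principal component it lay at −8.25, and the other EMEM libraries at −22.6 and −18.1. LGDMEM 3, at −3.47, had the lowest CCNE1 (34.9 CPM) and CDK2 (65.9 CPM) of the 9 and the highest CDKN2B (9.51 CPM), but also the lowest CDK6 (51.2 CPM) and the highest CDK4 (317.9 CPM).

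CDKN2B was lowest in the libraries numbered 1 of LGDMEM, HGDMEM and EMEM, at 1.51, 2.63 and 2.67 CPM from 6, 14 and 11 reads. The same 3 libraries had the highest CCNE1 of the 9, at 79.8, 91.5 and 99.3 CPM, the next being EMEM 3 at 71.1. This was noticed after the values were seen and has no test.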
